A study of Mus musculus with 30 samples.

Results

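Imprinted genes are genes whose RNA comes mainly from the copy inherited from 1 parent. The 35 imprinted genes described here were listed by name, with earlier results of these data known. A gene counted as measured where at least 1 probe set of the array named it and no other gene, and its brightest probe set stood for it. This gave 29 of 35 genes, among 18194 genes measured in all. No probe set was matched to Rtl1, Dio3, Slc22a3, Nespas or Zrsr1 alone, and the 1 probe set of H19 also named a microRNA gene, so these 6 genes have no value here.

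The RNA came from mouse embryonic stem (ES) cells that were Fl/Fl for Jmj, called wild type in the labels, or Jmj (-/-), called mutant or null. Jmj is the gene now named Jarid2, whose protein binds the Polycomb complex PRC2. Cells were taken at day 0, undifferentiated, and on days 2, 4, 6 and 8 after withdrawal of LIF, the cytokine that keeps mouse ES cells undifferentiated. Each Fl/Fl day had 2 arrays, 10 in all. Null had 20 arrays, which were 3 at day 0, 5 on each of days 2, 4 and 6, and 2 at day 8. The sample titles carry replicate letters: a and b in Fl/Fl, and in null a to c at day 0, a to e on days 2 to 6, and a and b at day 8. The number of clones behind each genotype is not given in the sources. The labels call the arrays biological replicates, yet nothing says that they came from separate cultures, so every p-value measures the spread between these arrays, which may be technical.

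Most imprinted genes lie in clusters, each governed by an imprinting control region that carries DNA methylation on the maternal or on the paternal chromosome only. The mark is set in the germ line and kept through cell division by DNA methyltransferases and by the zinc finger protein Zfp57 with its partner Trim28. It decides which parental copy of the nearby genes is transcribed. Mouse ES cells in culture are known to lose or gain such marks, and the noncoding RNA Meg3 of the Dlk1-Dio3 cluster is a known example of a gene that falls silent in some pluripotent lines.

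In Meg3 and Mest, readings lay far lower in some null arrays than in others of the same day, so a start region of each is printed. Rian and Mirg, which are described with Meg3, also differed widely between null arrays. Both come from RefSeq (build GRCm38.p6, 250 bases before to 50 after an annotated start), and the capitals mark CG dinucleotides, the sites at which imprints are methylated.
Meg3, chr12:109540746-109541045, plus strand: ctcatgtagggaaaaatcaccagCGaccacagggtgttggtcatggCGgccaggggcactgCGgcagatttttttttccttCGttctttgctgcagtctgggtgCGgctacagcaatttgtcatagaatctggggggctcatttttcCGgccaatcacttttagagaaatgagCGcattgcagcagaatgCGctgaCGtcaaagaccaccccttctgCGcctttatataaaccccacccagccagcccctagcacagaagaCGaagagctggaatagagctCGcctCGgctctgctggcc
Mest, chr6:30737800-30738099, plus strand: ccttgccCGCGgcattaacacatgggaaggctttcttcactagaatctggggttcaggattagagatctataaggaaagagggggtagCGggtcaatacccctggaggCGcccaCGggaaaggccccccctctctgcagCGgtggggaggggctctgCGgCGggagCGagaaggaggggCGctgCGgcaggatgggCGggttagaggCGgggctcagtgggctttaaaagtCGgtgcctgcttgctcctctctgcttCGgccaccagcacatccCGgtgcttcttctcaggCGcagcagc
These are 1 of 2 annotated Meg3 starts and 1 of 3 of Mest, shown because they hold the most CG. The Meg3 region holds 13 CG and that of Mest 17. The other Meg3 start, at chr12:109545148-109545447, holds 1 CG and 0 of the hexamers named next. Of the other Mest starts, that at chr6:30733256-30733555 holds 8 CG and 0 such hexamers, and that at chr6:30737803-30738102 overlaps the printed one and holds 17. The median was 7 over all 32851 promoters of 300 bases and 13 over the 43 promoters listed for 28 of the imprinted genes. Zfp57 is known to bind methylated copies of the hexamer TGCCGC. Read on both strands, that hexamer stood at 1 position in the Meg3 region and at 2 in that of Mest. It was present in 10 of the 43 promoters of imprinted genes and in 11.6% of all promoters. A match is only a description of these letters, and DNA methylation is not analysed here.

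Array means lay between 331.8 and 363.6. The 7 ES cell markers summed to 41993 to 58196 at day 0 and all 7 fell by day 8 in both genotypes. Jarid2 readings showed no loss in null. At day 0 it read 3335 and 3340 in Fl/Fl and 4082, 2943 and 2872 in null, at day 4 709 and 710 against 1257 to 1470, and at day 6 589 and 481 against 781 to 1206. It was higher in null at days 4 and 6 (log2 0.91 and 0.89, limma adjusted p = 0.0149 and 0.0186). The level thus goes against the label, and no source states where its probe sets lie relative to the deletion, so whether it can check the labels is unknown. The letters do not follow 1 culture through time. The Y-linked gene Eif2s3y read 594 to 850 in the null arrays c to e of days 2, 4 and 6, against 130 to 234 in Fl/Fl. In null a and b it read 16 and 290 at day 2 but 218 and 12 at day 4 and 217 and 13 at day 6. The a and b arrays at 16, 12 and 13 had Meg3 at 442, 340 and 287. Those at 290, 218 and 217 had Meg3 at 1147, 1227 and 1221. Null a and b of a day were thus unlike in both genes, although they are pooled below as null a-b. At day 0 Eif2s3y read 768 and 981 in the null arrays b and c and 259 in a, so b lay with c there. On days 2, 4 and 6 the actin control probe sets, read at the 3' end over the 5' end as a measure of intact RNA, gave a ratio of 1.545 to 1.659 in null a-b, 1.288 to 1.385 in null c-e and 1.48 to 1.78 in Fl/Fl. The part of these differences in the results on the letters was not tested. In bulk RNA, fewer cells of a type and less RNA per cell cannot be told apart.

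Null cells had less RNA of 16 of the 29 imprinted genes and more of 1, Magel2, when the 5 days were averaged (limma, adjusted p under 0.05). Over all genes 23.2% passed, 7.76% higher and 15.5% lower in null. The lower genes were the growth factor gene Igf2, its clearance receptor Igf2r, the cell cycle inhibitor Cdkn1c, the noncoding RNAs Meg3, Rian and Airn, the membrane ligand Dlk1, and Peg3, Peg10, Sgce, Copg2, Ndn, Mkrn3, Plagl1, Grb10 and Nnat. Their log2 differences ran from −3.17 for Igf2 to −0.32 for Copg2. The median over the 29 genes was −0.53, beside a median of 0 over all genes. With null arrays a and b only, 11 of the 29 passed, and the share of all genes in that setting is not given here. These arrays include null b of day 0, whose Meg3 read 26, near the 27 of null c. Markers of other cell types moved too: over the 5 days 6 of 11 fibroblast and 5 of 7 trophoblast markers were lower in null and 0 higher, and of 7 ES cell markers 2 were higher (Pou5f1 and Sox2) and 2 lower (Esrrb and Dppa5a). Their part in the lower imprinted genes was not tested.

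By day, 0 of the 29 passed by limma at day 0, where 1.18% of all genes did (0.247% higher and 0.929% lower). At day 2 also 0 passed, where 0.621% of all genes did (0.104% higher and 0.517% lower). At an unadjusted p under 0.05, 2 were higher and 6 lower at day 0, and 0 higher and 7 lower at day 2. The share of all genes at that looser threshold was not counted, so these counts cannot be set against the shares above. At day 4 Magel2 was higher and 7 genes were lower, Igf2, Airn, Peg3, Peg10, Sgce, Plagl1 and Nnat (11.6% of all genes, 4.18% higher and 7.43% lower). At day 6 the 7 that passed were all lower, Igf2, Cdkn1c, Igf2r, Airn, Ndn, Mkrn3 and Nnat (9.93% of all genes, 3.47% higher and 6.46% lower). At day 8 the 3 lower genes were Dlk1, Cdkn1c and Igf2r (2.51% of all genes, 0.709% higher and 1.8% lower). At day 4 the summed mesoderm markers stood at 2320 and 2589 in Fl/Fl and 23 to 48 in null, and the ES cell markers at 8990 and 9716 against 13610 to 18307. At day 6 the fibroblast markers stood at 2189 and 2743 in Fl/Fl and 173 to 625 in null. The part of these cells in the differences of those days was not tested.

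The day 4 count was 4 without Fl/Fl day 4 replicate 1 and 1 without replicate 2, and the day 6 count 4 without Fl/Fl day 6 replicate 1. The day 8 count was 5 without null day 6 replicate 2 and 6 without null day 8 replicate 2, and 2 without either Fl/Fl array of day 8 or null day 2 replicate 4. The day 4 count was 4 with null arrays a and b only and 15 with c to e only, and that of day 6 was 4 and 16 in the same order. With c to e only, 11 passed at day 2, and no count is given for day 0, where c stands alone. The share of all genes that passed is not given here for these settings. The counts therefore do not tell imprinted genes from other genes. At day 6 the replicate block ended the calls of Igf2 (adjusted p = 0.0767) and Mkrn3 (0.063).

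Before any test, the null and Fl/Fl readings of a day could be set apart by whether they overlapped. At day 0 they did not overlap in 14 of the 29 genes, 2 with null higher (Phlda2 and Magel2) and 12 with null lower. Over all genes 15.3% did not overlap, 5.44% with null higher and 9.9% with null lower. At day 2 there were 9, all with null lower (12.9% did not overlap, 4.51% with null higher and 8.39% with null lower). At day 4 null lay higher in Magel2 and lower in 11 (24.7% did not overlap, 10.4% with null higher and 14.3% with null lower). At day 6 it lay higher in Magel2 and Plagl1 and lower in 9 (25% did not overlap, 10.2% with null higher and 14.7% with null lower). At day 8 all 11 lay lower (25.3% did not overlap, 8.48% with null higher and 16.8% with null lower). Igf2, Cdkn1c and Nnat were in the lower set on each day. The share of all genes that lay lower on every day was not counted.

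**Figure D1:**
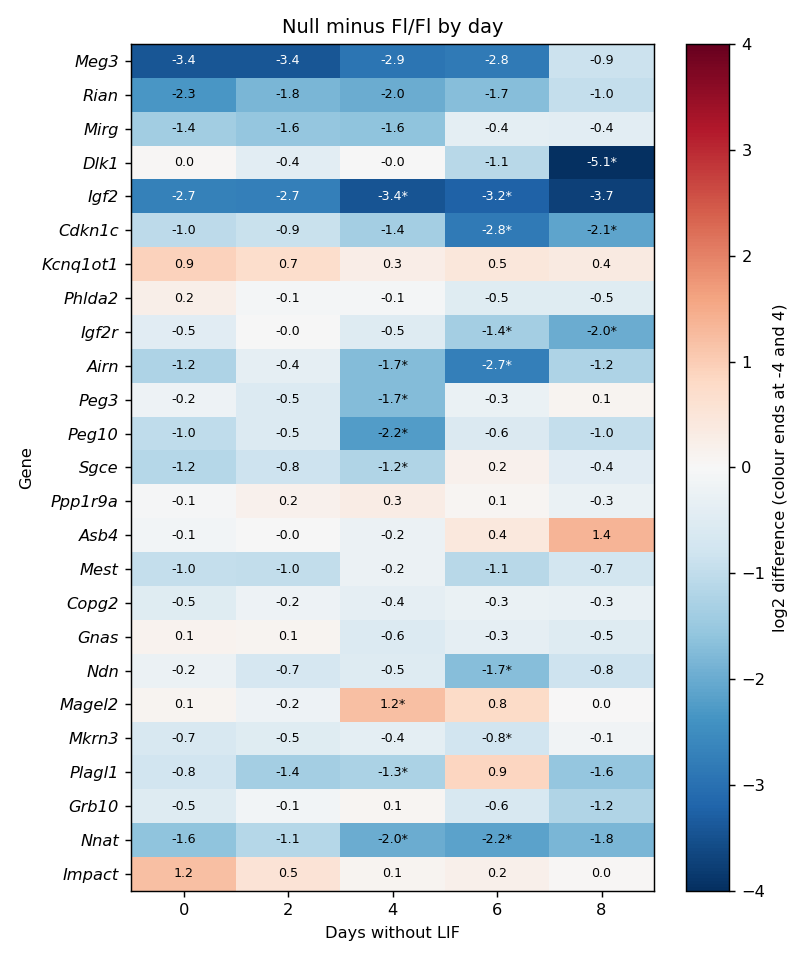
Heat map of the log2 difference null minus Fl/Fl (colour and printed value) for 25 imprinted genes, in rows, on each day without LIF, in columns. An asterisk marks limma's adjusted p under 0.05. Igf2 and Nnat have negative values on each day, and Dlk1 has its lowest value, −5.1, at day 8.

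Zim1, Usp29, Snrpn and Rasgrf1 stayed near the floor of the arrays, with highest readings of 6, 12, 9 and 8 over all 30 arrays, and are left out of the plots. The other 25 genes lay above the 40% of genes with the lowest means. Gnas reached 15349, and Igf2 spanned readings from 19 in a null array to 17215 in Fl/Fl at day 8. Probe sets that named more than 1 gene were left out, and Snrpn had only 1 left. Its floor reading therefore does not show that its RNA was absent.

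The Dlk1-Dio3 cluster on chromosome 12 holds the paternally expressed Dlk1 and the maternally expressed noncoding RNAs Meg3, Rian and Mirg. Meg3 was abundant in every Fl/Fl array, at 829 and 1038 on day 0, 903 and 1393 on day 2, 928 and 1009 on day 4, 653 and 1182 on day 6 and 1407 and 2579 on day 8. In null it read either 287 or more, or far lower, at 21 to 88. At day 0 null a read 695, and b and c read 26 and 27. On day 2 null a and b read 442 and 1147, and c, d and e read 22, 36 and 21. On day 4 the letters a to e read 1227, 340, 21, 73 and 40. The low arrays were c to e on each of these days and b and c at day 0. On day 6 a to e read 1221, 287, 21, 33 and 88, and at day 8 a and b read 1902 and 578.

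Rian and Mirg, noncoding RNAs that host small nucleolar RNAs and microRNAs, were low in most of the same arrays, with exceptions at days 0, 2 and 8. On days 2, 4 and 6 Rian read 23 to 76 in null a-b, 5 to 11 in null c-e and 34 to 100 in Fl/Fl. At day 0 it read 9, 5 and 5 in null a to c and 105 and 20 in Fl/Fl, so null a was low in Rian although its Meg3 read 695. Mirg read 38, 15 and 24 in null and 51 and 96 in Fl/Fl at day 0. Mirg read 41 to 173 in null a-b and 15 to 18 in null c-e on days 2, 4 and 6, apart from null d at day 2, which read 60, the same as null a of that day. In that array Meg3 (36) and Rian (9) stayed low. At day 8 null b was low in Rian (14) and Mirg (15) while its Meg3 read 578, and null a read 94 and 81.

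Averaged over the days, Meg3 lay 6.43-fold below Fl/Fl in null (log2 −2.69, SE 0.804, limma adjusted p = 0.0192), and 18 of 20 null arrays were below the Fl/Fl mean of their day. The adjusted p was 0.286 with null a and b only, which include null b of day 0 (26), and 0.169 with the replicate number as a block. Rian gave −1.76 (SE 0.426, adjusted p = 0.00482), which became 0.147 with null a and b only. Mirg gave −1.08 and did not pass (adjusted p = 0.0839). Since the letters were compared because Meg3 was known to differ between them, the differences of this cluster between letters carry no test. On the mean of days 2, 4 and 6, null c-e minus null a-b was −4.08 for Meg3, −1.96 for Rian, −2.02 for Mirg and −0.52 for Dlk1. Of the 11 Meg3 probe sets, the 6 that reached 148 or more gave −4.86 to −1.55, and the 5 dim ones, none above 48, gave −0.41 to −0.02.

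Dlk1, a protein-coding gene of the cluster, stayed at or below 54 in both genotypes until day 6 and rose in Fl/Fl by day 8. Fl/Fl read 20 and 21 at day 0, 32 and 54 at day 6 and 876 and 1493 at day 8. Null read 32, 17 and 17 at day 0 and 21 and 43 at day 8. The rise in Fl/Fl was 46.9-fold (log2 5.55, SE 0.435, limma adjusted p = 5.69e-09), and the change in null was 0.45 (SE 0.397, adjusted p = 0.441). The difference between these changes was −5.10 (SE 0.589, adjusted p = 1.39e-05) and passed under each of the 36 alternatives tried for it. At day 8 Dlk1 thus lay 33.5-fold lower in null (adjusted p = 1.06e-07), in arrays whose Meg3 read 1902 and 578.

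The summed intensity of 11 of 12 fibroblast and feeder cell markers moved with Dlk1 at day 8, at 11565 and 15370 in Fl/Fl and 792 and 1496 in null. Within the sum Col1a1 read 6250 and 6961 in Fl/Fl and 189 and 475 in null. Fap read 5 in all 4 arrays and Prrx1 read 8 to 11, both near the floor. The part of these cells in the Dlk1 difference, and in the other day 8 differences, was not tested.

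**Figure D2:**
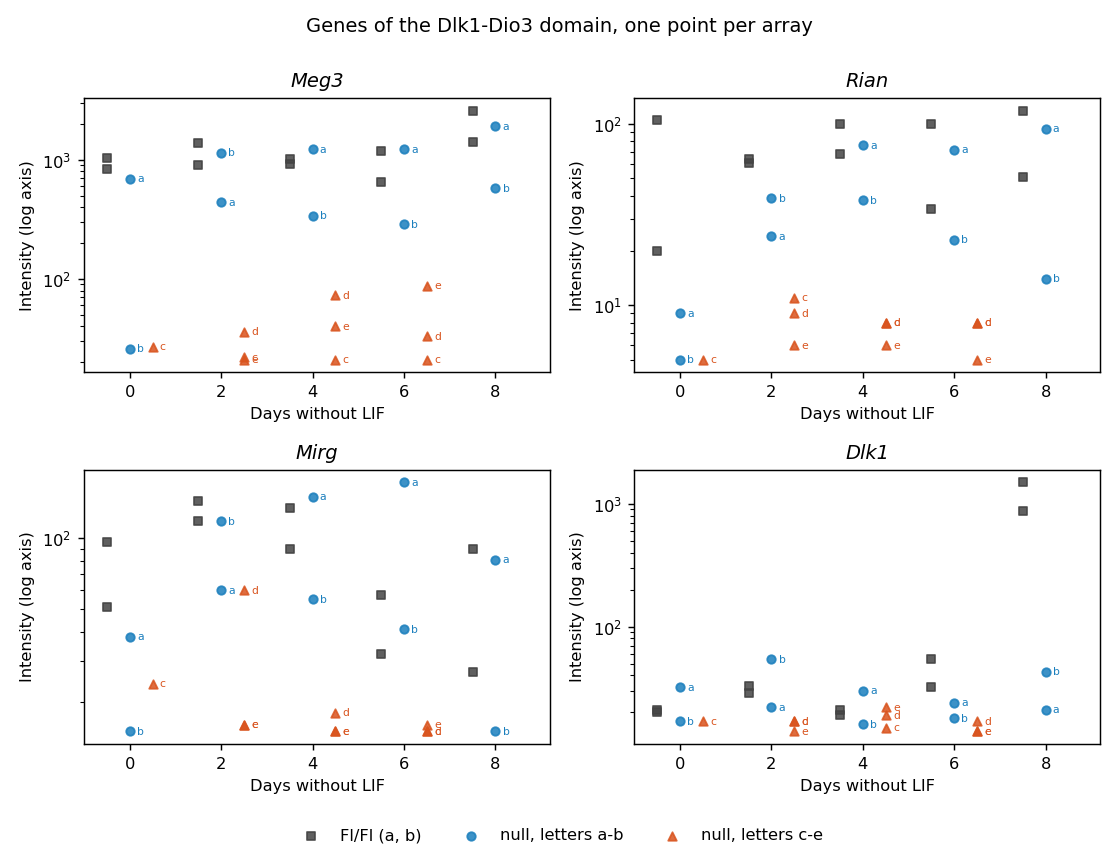
Intensity (log axis) of Meg3, Rian, Mirg and Dlk1 against days without LIF, 1 point per array: Fl/Fl squares, null a-b circles, null c-e triangles, moved sideways for legibility. The Meg3 triangles lie between 21 and 88, with null b of day 0 (26) beside them, and the Dlk1 squares of day 8 stand at 876 and 1493.

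Genes that flank the Dlk1-Dio3 cluster and are not imprinted were listed too. Of 9 listed, 8 were measured, and 0 were higher and 2 lower in null c-e than in null a-b (limma), where 22.8% of all genes passed. These were Wars, a tRNA synthetase (log2 −0.21, SE 0.069, adjusted p = 0.0423), and Dync1h1, a dynein heavy chain (−0.23, SE 0.0652, adjusted p = 0.0205). The median over the 8 was −0.03, beside −0.01 over all genes. Against Fl/Fl over 5 days, 1 of the 8 was higher in null, Ppp2r5c (0.25, adjusted p = 0.00437), and 1 lower, Dync1h1 (−0.46, adjusted p = 0.00588).

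The comparison of null c-e with null a-b on days 2, 4 and 6 covered the 25 measured genes outside the Dlk1-Dio3 cluster. Null c-e had more RNA of 4, Kcnq1ot1, Nnat, Impact and Plagl1, and less of 6, Igf2, Asb4, Grb10, Airn, Copg2 and Phlda2. These 10 of 25 compare with 22.8% of all genes, 7.6% higher and 15.2% lower. Null arrays of the same letter deviated together across these days, with correlations of 0.144 to 0.5 over the 15 same-letter pairs. These deviations were taken from the mean of all null arrays of a day, so the difference between a-b and c-e is part of them. They cannot tell whether arrays of a letter are independent. With each side fitted apart on each day, the estimated correlation within a letter was −0.00876, but the letters do not follow 1 culture. With 1 value per letter 8 of the 25 passed, and the share of all genes in that setting is not given here. The median difference of the 25 was −0.16, beside −0.01 over all genes. In 4 of the 25 the 2 sides did not overlap on any of the 3 days, Kcnq1ot1, Nnat and Impact being higher in c-e and Grb10 lower. Over all genes 8.02% separated in this way, 2.76% higher and 5.26% lower. The letters also differed in other markers by limma: 4 of 7 ES cell markers were higher in c-e, and 5 of 8 endoderm and 3 of 4 mesoderm markers were lower.

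**Figure D3:**
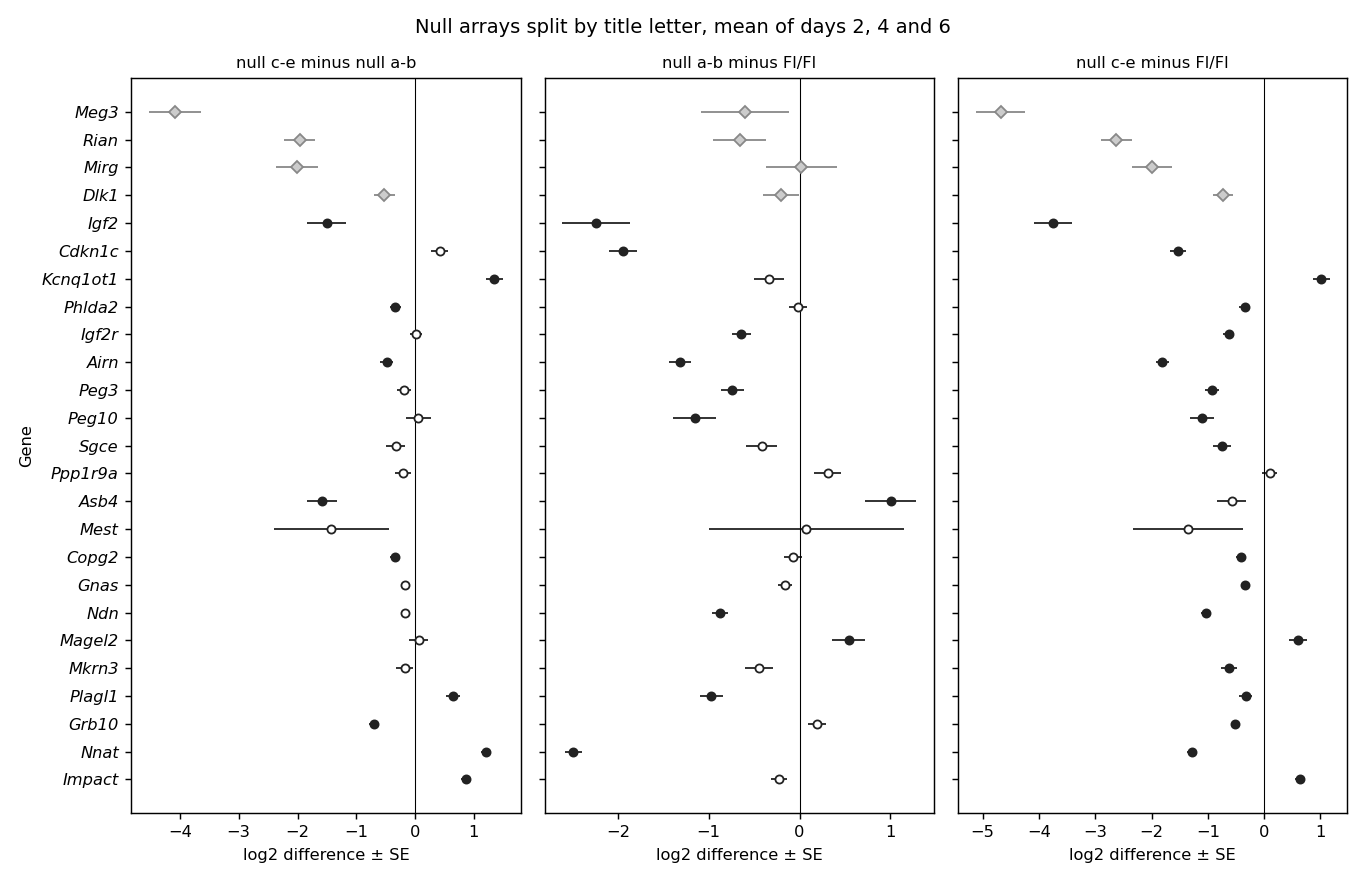
Log2 difference with its standard error on the mean of days 2, 4 and 6 for null c-e minus null a-b, null a-b minus Fl/Fl and null c-e minus Fl/Fl, for 25 imprinted genes in rows. Filled circles have limma's adjusted p under 0.05, open circles do not, and grey diamonds mark the Dlk1-Dio3 genes, which carry no test here. Kcnq1ot1, at 1.35, and Nnat, at 1.21, lie farthest right in the first panel.

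In the Igf2 and Kcnq1 clusters on chromosome 7, Igf2 was lower in null than in Fl/Fl and Kcnq1ot1 separated the letters. Igf2, a fetal growth factor expressed from the paternal copy, read 611 and 657 in Fl/Fl at day 0, 324 and 433 at day 2, 567 and 614 at day 4, 3109 and 2197 at day 6 and 10683 and 17215 at day 8. In null it read 195, 65 and 65 at day 0. Every null array lay below both Fl/Fl arrays of its day. On days 2, 4 and 6 null a-b read 37 to 1023 and null c-e 19 to 164, and at day 8 null a and b read 3558 and 292. By day, Igf2 passed at day 4 (log2 −3.45, limma adjusted p = 0.0122; 0.104 and 0.105 without Fl/Fl day 4 replicates 1 and 2). It also passed at day 6 (−3.24, adjusted p = 0.0203; 0.187 and 0.128 without Fl/Fl day 6 replicates 1 and 2). The averaged difference was 9.01-fold (log2 −3.17, SE 0.415, limma adjusted p = 1.65e-05; 20 of 20 arrays lower). Null c-e lay below null a-b by 2.84-fold (−1.51, SE 0.34, adjusted p = 0.00568), without overlap on days 2 and 6 but with overlap on day 4. A second Igf2 probe set, which reached only 303, gave −0.65 between genotypes and −0.02 between letters.

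Cdkn1c, a maternally expressed inhibitor of cyclin-dependent kinases, was 3.13-fold lower in null over the 5 days (log2 −1.65, SE 0.218, limma adjusted p = 1.82e-05; 20 of 20 arrays). The gap was widest at day 6, where Fl/Fl read 1685 and 1128 and null a to e 191, 338, 172, 165 and 139 (−2.82, adjusted p = 0.000373). At day 8 it read 1659 and 1910 against 393 and 419 (−2.12, adjusted p = 0.0396). This call ended without Fl/Fl day 8 replicate 1 (0.106) or 2 (0.249), null day 8 replicate 1 (0.134) or null day 2 replicate 4 (0.0501). Between letters it gave 0.42 and did not pass (adjusted p = 0.054). The days differed, since c-e lay above a-b at day 4 (319 to 428 against 108 and 86) and below at day 6.

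Kcnq1ot1, the paternally expressed noncoding RNA that silences Cdkn1c and its neighbours on that chromosome, was higher in null c-e on each day. Null c-e read 455, 502 and 479 at day 2, 339, 296 and 309 at day 4 and 325, 312 and 321 at day 6. Null a and b read 210 and 277, 89 and 109, and 116 and 115 on the same days. The difference was 2.55-fold (log2 1.35, SE 0.149, limma adjusted p = 3.23e-05), and 2 further probe sets, which reached 388 and 225, gave 1.42 and 0.68. Fl/Fl read 129 to 321 on these days, below all c-e arrays of the same day. Phlda2, a maternally expressed growth restrictor, passed as lower in c-e (−0.34, SE 0.0905, adjusted p = 0.0163), but c-e lay above a-b at day 4 (956 to 1032 against 722 and 528). Without null day 6 replicate 1 its adjusted p was 0.0573, and it was also above the threshold without null day 2 replicate 2 (0.0544) or null day 4 replicate 1 (0.0572), with 1 value per letter (0.0721) and with centred arrays (0.072). At day 8 Phlda2 read 2126 in null a and 129 in null b.

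In the Igf2r cluster on chromosome 17, both genes rose in both genotypes and were lower in null. Igf2r, the maternally expressed receptor that clears Igf2, read 469 and 319 in Fl/Fl at day 0, 1033 and 1101 at day 6 and 2380 and 3616 at day 8. In null it read 309, 266 and 270 at day 0, 350 to 606 at day 6, and 494 and 1090 at day 8. The genotypes did not overlap on days 0, 4, 6 and 8. It rose 7.52-fold in Fl/Fl (limma adjusted p = 6.7e-08) and 2.59-fold in null (adjusted p = 0.000202). The difference of these changes was −1.54 (SE 0.374, adjusted p = 0.0484), a call that ended in 28 of 36 alternatives, with adjusted p of up to 0.274 (without Fl/Fl day 8 replicate 2). Averaged over the days, null was 1.83-fold lower (−0.87, SE 0.11, adjusted p = 1.12e-05).

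Airn, the paternally expressed antisense noncoding RNA that silences the paternal Igf2r, followed a similar course at lower intensity. It read 53 and 32 in Fl/Fl at day 0, 150 and 208 at day 6 and 269 and 461 at day 8. Null read 14, 12 and 20 at day 0, 31 and 39 in a and b and 18, 16 and 19 in c to e at day 6, and 92 and 237 at day 8. Its day 4 call (log2 −1.74, adjusted p = 0.00126) ended without Fl/Fl day 4 replicate 2 (0.0502) and with the mean of its probe sets (0.216). It was 2.76-fold lower in null over the days (log2 −1.46, SE 0.157, limma adjusted p = 1.43e-06; 20 of 20 arrays). Both genotypes rose by day 8, 7.87-fold in Fl/Fl and 7.99-fold in null. Null c-e was lower than a-b (−0.49, SE 0.11, adjusted p = 0.00597), close to the floor, and a further probe set that reached 347 gave −0.02. Its adjusted p was 0.193 with day 0 added to this comparison and 0.103 with the mean of its probe sets.

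**Figure D4:**
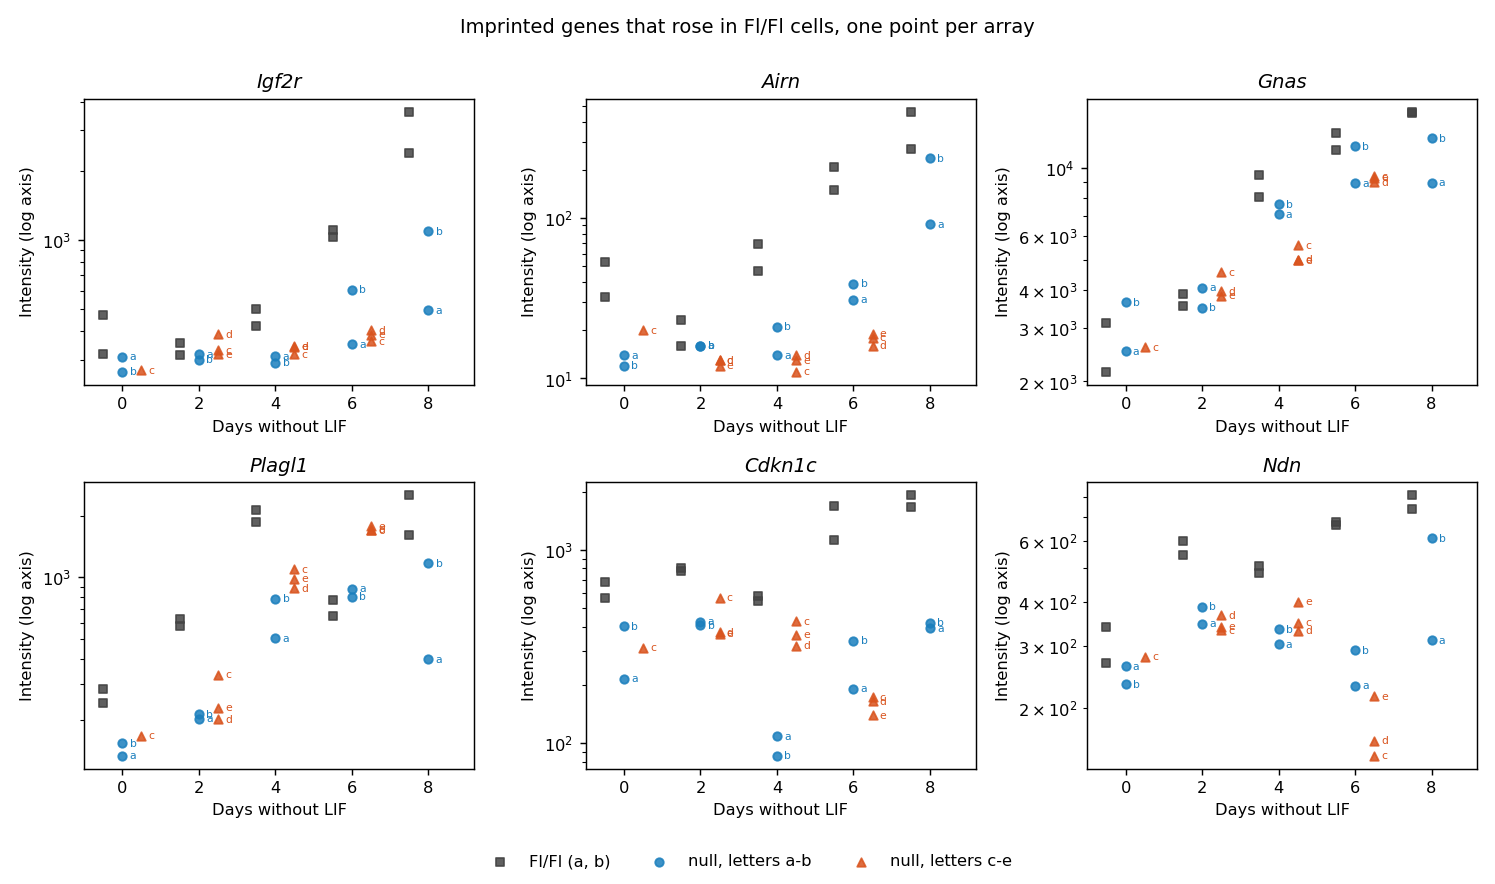
Intensity (log axis) of Igf2r, Airn, Gnas, Plagl1, Cdkn1c and Ndn against days without LIF, 1 point per array: Fl/Fl squares, null a-b circles, null c-e triangles, moved sideways for legibility. The Igf2r and Airn squares of days 6 and 8 lie above all null points of the same day, and the Plagl1 squares of day 6, at 646 and 769, lie below all null points.

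Peg3, a paternally expressed zinc finger gene on chromosome 7, was lower in null at day 4. It read 4111 and 4558 in Fl/Fl and 840, 1631, 1516, 1353 and 1254 in null a to e (3.36-fold; log2 −1.75, SE 0.231, limma adjusted p = 3.26e-05). By day 6 the groups overlapped, with 6170 and 6699 in Fl/Fl, 7354 and 6867 in null a and b and 4374 to 4580 in null c to e. At day 8 the difference was 0.11 (adjusted p = 1). Between letters it gave −0.19 (adjusted p = 0.328).

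In the Peg10-Sgce cluster on chromosome 6, the paternally expressed genes Peg10 and Sgce were lower in null at day 4. Peg10, a gene derived from a retrotransposon, read 948 and 1589 in Fl/Fl and 98, 204, 464, 450 and 272 in null at day 4 (4.69-fold, limma adjusted p = 0.0164; 0.0653 and 0.202 without Fl/Fl day 4 replicates 1 and 2). Sgce, a sarcoglycan, read 113 and 133 against 60, 92, 26, 45 and 52 (2.30-fold, adjusted p = 0.00687; 0.102 without the same array). Over the 5 days Peg10 gave −1.07 (adjusted p = 0.0087; 0.0722 with null a and b only) and Sgce −0.69 (adjusted p = 0.000823). Neither passed between letters. Ppp1r9a, a neuronal actin-binding protein, gave 0.04 between genotypes (adjusted p = 0.931).

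Asb4, a maternally expressed gene of the same cluster, was near the floor except late in some arrays. At day 6 it read 294 and 503 in null a and b, 11, 13 and 10 in c to e, and 89 and 15 in Fl/Fl. At day 8 it read 624 in null a and 9 in null b. The difference between letters was 3.00-fold (log2 −1.58, SE 0.258, limma adjusted p = 0.000641) and a-b and c-e overlapped on days 2 and 4 but not on day 6. Summed endoderm markers moved with it at day 6, at 790 and 1152 in null a and b and 190 to 217 in c to e. So did trophoblast markers, at 5318 and 3508 against 1364 to 1551, and mesoderm markers, at 7835 and 4491 against 1487 to 2264. The fibroblast sum was also higher in a and b that day, and the ES cell and neuroectoderm sums were lower. At day 8 null a and b had endoderm sums of 497 and 492, trophoblast sums of 3972 and 331 and mesoderm sums of 3682 and 283. Fl/Fl of day 8 had endoderm sums of 666 and 753, with Asb4 at 26 to 37. The part of these cells in the Asb4 difference was not tested.

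Mest, a paternally expressed enzyme of the hydrolase family on chromosome 6, was far lower in 1 null array of each day from 0 to 6 than in any other array. At day 0 null a, b and c read 1139, 51 and 1837, against 907 and 991 in Fl/Fl. On day 2 null a to e read 1882, 2515, 54, 2487 and 2376, against 2184 and 2177. On day 4 null read 2314, 1502, 97, 2563 and 2546, against 1413 and 1359. On day 6 it read 2654, 2598, 156, 2222 and 2051, against 2990 and 3028. Apart from the low array, null thus lay above Fl/Fl at day 4 and below it at day 6. The low array was b at day 0 and c on days 2, 4 and 6, and no other array of either genotype read below 907. The low arrays had Meg3 at 26, 22, 21 and 21, but 7 null arrays with Meg3 between 21 and 88 kept Mest at 1837 to 2563. At day 8 Mest read 5119 and 2840 in null and 5014 and 7864 in Fl/Fl.

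Mest did not pass between genotypes (log2 −0.81, SE 0.713, limma adjusted p = 0.479) or between letters (−1.43, SE 0.98, adjusted p = 0.372). Copg2, the coat protein gene that lies next to Mest, did not share the pattern: in the 4 arrays with low Mest it read 227, 165, 158 and 155, within the 109 to 288 of all null arrays. Copg2 was slightly lower in c-e than in a-b (−0.34, SE 0.0879, adjusted p = 0.0121), a call lost with 1 value per letter (0.0536). It was also lower in null over the days (−0.32, adjusted p = 0.0368), a call lost in 12 of 38 alternatives. These were 8 that left out 1 array (Fl/Fl day 0 replicate 1, day 2 replicate 2, day 4 replicates 1 and 2, day 6 replicate 2, day 8 replicate 2, null day 0 replicate 3 and null day 8 replicate 2), and, among others, quantile normalization (0.142) and null a and b only (0.389).

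**Figure D5:**
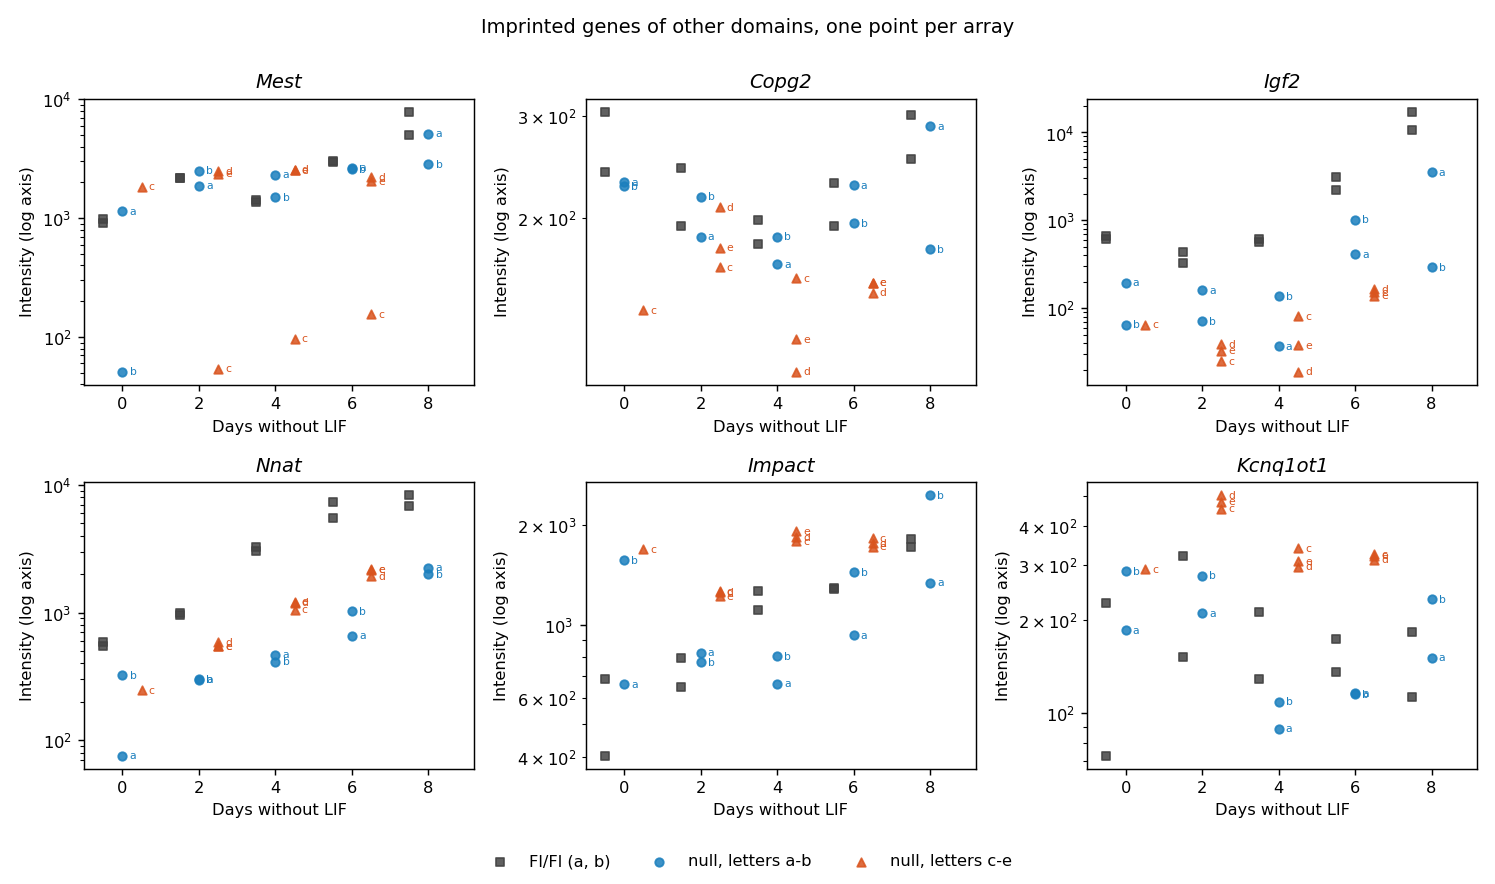
Intensity (log axis) of Mest, Copg2, Igf2, Nnat, Impact and Kcnq1ot1 against days without LIF, 1 point per array: Fl/Fl squares, null a-b circles, null c-e triangles, moved sideways for legibility. Mest stands at 51, 54, 97 and 156 in single null arrays of days 0, 2, 4 and 6, while Kcnq1ot1, Nnat and Impact show the c-e triangles above the a-b circles on days 2, 4 and 6.

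Gnas on chromosome 2, which encodes the stimulatory G protein subunit alpha and related transcripts, rose with time in both genotypes. It read 3109 and 2151 in Fl/Fl at day 0 and 15223 and 15349 at day 8 (5.90-fold, limma adjusted p = 1.88e-08). In null it read 2509, 3633 and 2590 at day 0 and 8984 and 12593 at day 8 (3.70-fold, adjusted p = 2.95e-07). The difference between the courses did not pass (−0.67, SE 0.298, adjusted p = 0.406). Over the days null gave −0.23 (adjusted p = 0.058).

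In the Prader-Willi cluster on chromosome 7, Ndn and Mkrn3 were lower in null and Magel2 was higher, though all are paternally expressed. Ndn, a growth suppressor of the MAGE family, read 665 and 680 in Fl/Fl at day 6 and 231, 292, 146, 161 and 216 in null (3.27-fold; log2 −1.71, SE 0.211, limma adjusted p = 1.9e-05). All 20 null arrays lay below the Fl/Fl mean of their day (−0.79, adjusted p = 1.16e-05 over the 5 days). Mkrn3, a ring finger gene, was low in all arrays, at 18 to 37 in Fl/Fl and 7 to 19 in null (−0.49, adjusted p = 0.00122). Its day 6 call (−0.77, adjusted p = 0.0201) ended without Fl/Fl day 6 replicate 1 (0.343) and after quantile normalization (0.0804). Magel2, another MAGE gene, read 72 and 57 in Fl/Fl at day 4 and 166, 151, 147, 111 and 199 in null (2.29-fold higher, adjusted p = 0.00534; 0.103 without Fl/Fl day 4 replicate 2). Its averaged call (0.37, adjusted p = 0.0415) was lost in 21 of 38 alternatives, with adjusted p of up to 0.222. None of the 3 passed between letters.

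Nnat, a paternally expressed proteolipid gene on chromosome 2, was lower in null throughout and lowest in null a-b. It read 584 and 550 in Fl/Fl at day 0, 3040 and 3264 at day 4 and 6837 and 8268 at day 8. In null it read 76, 324 and 246 at day 0, 468 and 414 in a and b and 1052, 1197 and 1216 in c to e at day 4, and 2245 and 2002 at day 8. Its day 4 call (adjusted p = 0.0155) and day 6 call (0.0109) each ended without either Fl/Fl array of the day (0.114 and 0.125, and 0.0628 and 0.171). Over the days it was 3.35-fold lower in null (log2 −1.75, SE 0.25, limma adjusted p = 4.32e-05; 20 of 20 arrays). Null c-e exceeded null a-b 2.31-fold (1.21, SE 0.089, adjusted p = 1.09e-06), without overlap on any of the 3 days. Against Fl/Fl on these days, null a-b gave −2.49 (adjusted p = 8.29e-09) and null c-e −1.28 (adjusted p = 2.87e-07). It rose in both genotypes, 13.2-fold in Fl/Fl and 11.3-fold in null.

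Impact, a regulator of translation, was also higher in null c-e, at 1218 to 1262, 1780 to 1912 and 1717 to 1818 on days 2, 4 and 6. Null a and b read 822 and 771, 664 and 804, and 930 and 1439. The difference was 1.81-fold (log2 0.86, SE 0.0824, limma adjusted p = 1.05e-05). A dim second probe set, which reached 87, gave 0.03, and the mean of the gene's probe sets still passed (adjusted p = 0.0168). At day 0 null b and c read 1563 and 1689 and a read 661, against 403 and 687 in Fl/Fl. The 2 null arrays with low Meg3 at day 0 thus had the higher Impact readings.

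Plagl1, a paternally expressed zinc finger gene on chromosome 10, changed sides over time. At day 4 it read 1869 and 2140 in Fl/Fl and 503, 784, 1094, 885 and 981 in null (log2 −1.28, SE 0.366, limma adjusted p = 0.0257; 0.13 and 0.192 without Fl/Fl day 4 replicates 1 and 2, and 0.0503 without null day 4 replicate 1). At day 6 all null arrays, at 802 to 1780, lay above Fl/Fl, at 646 and 769, though this did not pass (0.87, adjusted p = 0.156). Null c-e exceeded a-b (0.65, SE 0.115, adjusted p = 0.00117), with no overlap on days 4 and 6. Over the days null was lower (−0.82, adjusted p = 0.00181).

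Grb10, an adaptor that restrains growth factor signalling, on chromosome 11, gave different directions by probe set. Its brightest probe set read 1939 and 1540 in null a and b and 1396, 1327 and 1388 in c to e at day 2. At day 4 these were 2863 and 2940 against 1737, 1375 and 1632, and at day 6 2072 and 2607 against 1585, 1104 and 1134. It lay lower in c-e by log2 −0.70 (SE 0.088, limma adjusted p = 8.62e-05), with no overlap on any of the days. The other 2 probe sets, which reached 585 and 144, gave 1.23 and 1.18 in the opposite direction, and the mean of all 3 gave 0.57 (adjusted p = 0.00549). Its lower level in null over the days (−0.48, adjusted p = 0.0294) was likewise 0.06 with the mean of probe sets, and leaving out Fl/Fl day 0 replicate 1 gave an adjusted p of 0.0899. The difference was −0.21 with the replicate block (adjusted p = 0.274) and −0.21 with null a and b only (0.363). The adjusted p became 0.0513 to 0.0662 without Fl/Fl day 2 replicate 2, day 4 replicate 2, day 6 replicate 1, day 8 replicate 2 or null day 8 replicate 2.

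Each side of the letters was also set against the same Fl/Fl arrays, so these 2 comparisons share their controls. Outside the Dlk1-Dio3 cluster, null a-b had less RNA of 9 of 25 genes and more of 3 (limma; 24.4% of all genes passed, 11.6% higher and 12.7% lower). Null c-e had less of 15 of 25 and more of 3 (33.3% of all genes, 12.8% higher and 20.5% lower). Igf2 gave −2.24 in a-b and −3.75 in c-e, Cdkn1c −1.94 and −1.53, Airn −1.32 and −1.81, Peg10 −1.15 and −1.10, and Ndn −0.87 and −1.04. Kcnq1ot1 gave −0.33 in a-b (adjusted p = 0.183) and 1.02 in c-e (adjusted p = 0.00014), and Impact −0.23 (adjusted p = 0.09) and 0.63 (adjusted p = 5.28e-05; 0.423 with the mean of its probe sets). For these 2 genes the difference between letters given above is the test between sides. Among the 3 higher in a-b, Asb4 (1.01, adjusted p = 0.0193) had an adjusted p of 0.0524 without null day 6 replicate 2, Snrpn read only 7 to 9 on these days and Magel2 lost its call in 13 of 28 alternatives. The lower call of Plagl1 in c-e (−0.33, adjusted p = 0.0428) was lost or reversed in 20 of 29. For the cluster left out, c-e minus Fl/Fl was −4.68 for Meg3, −2.62 for Rian, −1.99 for Mirg and −0.72 for Dlk1, and a-b minus Fl/Fl −0.60, −0.66, 0.02 and −0.20, given without tests.

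Over the course from day 0 to day 8, many of the imprinted genes rose and none passed as lower. At an unadjusted p under 0.05, 1 lay lower at day 8 in Fl/Fl (Mkrn3) and 2 in null (Phlda2 and Rasgrf1, the latter at the floor). The share of all genes at that threshold was not counted. In Fl/Fl 13 of 29 rose and 0 fell by limma (33.6% of all genes passed, 15% higher and 18.6% lower), with a median change of 1.35 beside −0.05 over all genes. The 13 were Dlk1, Igf2, Nnat, Airn, Plagl1, Igf2r, Gnas, Grb10, Impact, Cdkn1c, Sgce, Peg3 and Ndn. In null 10 of 29 rose and 0 fell (33.4% of all genes, 14.9% higher and 18.5% lower): Nnat, Igf2, Airn, Sgce, Plagl1, Gnas, Peg3, Igf2r, Grb10 and Ndn. Null day 0 holds 2 arrays with low Meg3 and null day 8 none, so day and kind of array cannot be told apart in the null course. The 2 courses differed by the test in 2 of 29 genes, Dlk1 and Igf2r, where 1.09% of all genes did (0.407% higher and 0.687% lower). The null rise of Igf2 (log2 3.39, adjusted p = 0.00876) became 0.278 without null day 8 replicate 1, and that of Ndn (0.75, adjusted p = 0.0151) became 0.548 without null day 8 replicate 2. That of Grb10 (1.11, adjusted p = 0.0201) ended without null day 0 replicate 3 (0.0617) or null day 8 replicate 1 (0.175). In Fl/Fl, the call of Cdkn1c (1.52, adjusted p = 0.0368) ended without any 1 of the 4 arrays compared, and that of Impact (1.73, adjusted p = 0.0097) without Fl/Fl day 0 replicate 1 (0.115) or day 8 replicate 2 (0.0549).

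Genes that set or keep imprints were taken from a list of 20, of which 19 were measured. In Fl/Fl 0 rose and 15 fell from day 0 to day 8 (15% of all genes rose and 18.6% fell), with a median of −1.64. The demethylating enzyme Tet1 (log2 −5.54, limma adjusted p = 1.82e-12), the oocyte and ES cell factor Dppa3 (−6.11, adjusted p = 3.23e-08) and Trim28 (−1.64, adjusted p = 7.16e-09) were among them. Averaged over the days, where 7.76% of all genes were higher and 15.5% lower, null had more RNA of 9 of the 19 and less of 1, Dppa3 (log2 −1.11, SE 0.217, limma adjusted p = 0.000892). The 9 included the de novo methyltransferases Dnmt3b (1.24, adjusted p = 2.48e-05) and Dnmt3a (0.73, adjusted p = 0.0206), Tet1 (0.77, adjusted p = 1.58e-05) and Aff3 (1.08, adjusted p = 0.00105).

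Between letters, 5 of the 19 were higher in null c-e and 6 lower, beside 7.6% and 15.2% of all genes, with a median of 0.03. Dnmt3l, the cofactor of de novo DNA methylation, was 2.59 higher on the log2 scale (SE 0.208, limma adjusted p = 2.26e-06). At day 4 it read 1492, 1757 and 1599 in c to e, 122 and 39 in a and b, and 156 and 164 in Fl/Fl. The Polycomb subunit Eed was higher by 0.29 (adjusted p = 0.000104). The imprint keepers Zfp57, higher by 0.53 (adjusted p = 0.0176), and Trim28, higher by 0.11 (adjusted p = 0.00589), are given although the rule for named genes did not pick them, a choice made after their values were seen. Dnmt3a (−0.95, adjusted p = 0.00308) and Dnmt3b (−0.39, adjusted p = 0.0012) were lower.

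A further list held 38 other genes that are imprinted or lie in imprinted clusters, of which 34 were measured. Over the 5 days 1 was higher in null and 9 were lower by limma, beside 23.2% of all genes, with a median of −0.08. The lower ones included the membrane organizer Cd81 (log2 −0.57, adjusted p = 0.000826) and Tssc4 (−0.66, adjusted p = 0.00125), both of the Kcnq1 cluster, the amino acid transporter Slc38a4 (−0.46, adjusted p = 0.000534) and Peg12 of the Prader-Willi cluster (−0.38, adjusted p = 0.000785). Between letters 3 were higher in null c-e and 5 lower, 23.5% of the 34 beside 22.8% of all genes, a share near the background. Among them were Casd1 of the Peg10-Sgce cluster (−0.99, adjusted p = 0.00016), the calcitonin receptor Calcr of the same cluster (0.82, adjusted p = 0.000504) and the Polycomb-related Sfmbt2 (0.74, adjusted p = 0.00202).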

How the data were processed

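RNA of 30 samples was measured on Affymetrix mouse arrays, 1 array per sample. The authors deposited 1 linear intensity per probe set and array, in whole numbers. How they corrected background, normalized and summarised probe sets is not stated in the labels. The number of arrays limits the precision. Of 45101 probe sets, 34958 named 1 gene in the platform annotation, 932 several and 9211 none. The brightest single-gene probe set, by mean over all arrays, stood for each of 18194 genes.

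Values were taken as log2(intensity + 4), which understates the change of dim genes, and every log2 difference and fold is on that scale. They were fitted with limma 3.58.1 in R 4.3.3, with Benjamini-Hochberg adjustment over all genes and a threshold of 0.05. All 30 arrays were fitted with 1 mean per genotype and day (20 residual degrees of freedom). The letters were compared in the 21 arrays of days 2, 4 and 6, with Fl/Fl, null a-b and null c-e apart on each day (12 residual degrees of freedom). Groups were taken from the sample titles. Comparisons against Fl/Fl share its arrays. The fits were tested on simulated data.

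Alternatives were another pseudocount (16), quantile normalization, centred arrays, the mean of all probe sets, removal of the 40% of genes with the lowest mean, the replicate number or letter as a block, 1 value per letter, null letters a and b or c to e only, and each array left out in turn. Leaving out the null c arrays together, and adding day 0 to the letters, were chosen after seeing the data.

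The genes named were all measured imprinted genes, Jarid2, Eif2s3y and, from each further list and comparison, up to 6 genes that passed, by adjusted p. The imprinted genes and all lists were chosen with earlier results of these data known. The numbers of Fl/Fl and null arrays of 1 day did not pair: over 10 same-number pairs the correlation of deviations ran from −0.199 to 0.259. Between null arrays of different days, 23 of 32 same-number pairs were over 0.1 (−0.348 to 0.511), and all 15 among days 2, 4 and 6 were (0.144 to 0.5). Deviations were from the mean of all arrays of a genotype and day, so the difference between null a-b and c-e enters these correlations.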

Additional observations from a re-analysis of the deposited data

Results flagged for a closer look

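In groups of 5 null arrays, 82 sets of readings were checked for a single value far from the rest, and 10 stood out. Chance gives about 1 in 20 only if the 5 readings come independently from 1 normal spread. That cannot be assumed here, since null a-b and c-e differed in many genes and floor readings are whole numbers. Mest in replicate 3 accounts for 3 of the 10, at 54 on day 2 (others 1882 to 2515), 97 on day 4 (1502 to 2563) and 156 on day 6 (2051 to 2654). At day 6, replicate 2 was high for Igf2r, at 606 (350 to 404), and for Gnas, at 11837 (8931 to 9426). Replicate 3 of that day was low for Ppp1r9a, at 79 (119 to 139), and replicate 5 for Mkrn3, at 14 (17 to 18). Plagl1 in replicate 3 of day 2 read 334 (202 to 230). The last 2 lie near the floor: Snrpn read 6 in replicate 5 of day 6 (others 7) and Rasgrf1 8 in replicate 1 of day 2 (others 7).

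The change from day 0 to day 8 differed between the genotypes by limma for Dlk1 (−5.10, null minus Fl/Fl, log2, adjusted p = 1.39e-05) and Igf2r (−1.54, adjusted p = 0.0484).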

How the results depend on the processing

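Over 100 calls of single imprinted genes, 3210 of 3384 alternative values kept direction and side of the threshold, 169 lost the threshold and 5 reversed. Many of these alternatives left out 1 array that the comparison did not use. That can change the estimated spread but not the difference, so the share kept overstates how stable the calls are. With the mean of all probe sets, Grb10 reversed to 0.063 (null minus Fl/Fl over the days), −0.11 (null course), 0.57 (c-e minus a-b) and 0.86 (c-e minus Fl/Fl), and Plagl1 to 0.029 (c-e minus Fl/Fl). Counts of imprinted genes that passed moved as follows. At day 8, where 3 passed, the count was 5 after removal of the dimmest 40% of genes, 6 with the mean of probe sets and 6 with the replicate block. The difference of courses gave 1 with the mean of probe sets and 1 with the replicate block. The replicate block also gave 1 at day 0 and 2 at day 2, beside 13 over the days, 8 at day 4, 5 at day 6, 13 in the Fl/Fl course and 12 in the null course. With null a and b only, 11 passed over the days, 4 at day 4 and 4 at day 6. With null c to e only, days 2, 4 and 6 gave 11, 15 and 16 in that order. The share of all genes that passed is not given here for these settings. Leaving out 1 array at a time gave 14 to 18 over the days, 0 to 1 on day 0, 0 to 1 on day 2, 1 to 10 on day 4, 4 to 9 on day 6, 2 to 6 on day 8, 11 to 14 in the Fl/Fl course, 10 to 11 in the null course and 1 to 3 in their difference. For the letters it gave 10 to 11 for c-e minus a-b, 11 to 13 for a-b minus Fl/Fl and 17 to 18 for c-e minus Fl/Fl. With the letter as a random block these 3 counts were 10, 12 and 18. The correlation used there was −0.00876, so that fit was close to the one without a block. With 1 value per letter the counts were 8, 9 and 16, though the letters do not follow 1 culture through time. Neither setting can test dependence between arrays of 1 culture. For these settings, and for each array left out, the share of all genes that passed is not given here. These counts therefore do not tell imprinted genes from other genes. The cause was not tested. Readings near the floor of the arrays limit what can be seen for Zim1, Usp29, Snrpn and Rasgrf1.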
